A study of Mus musculus with 12 samples.

Results

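Transcripts of 9 genes known from B cells were followed in CD4+ T cell populations sorted from mouse thymus. The genes were Ighm, Ighd, Igkc, Cd79a, Cd79b, Ms4a1, Cd22, Blnk and Bank1, and they were taken by symbol from the 55450 genes of the expression table. They were chosen by their measured levels, which had been seen to differ between the sorted populations in these libraries, so their levels, their fold changes and the counts of them that passed a threshold are a description and support nothing. All 9 also passed the filter on low counts that kept 15361 genes for testing.

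The series holds 12 RNA-seq libraries, 4 from each of 3 populations, and its title concerns Eos, the transcription factor encoded by Ikzf4, in regulatory T cells (Tregs) that return to the thymus. Eos+ Tregs were sorted as CD4+Foxp3+Ccr6+Cxcr4+ cells, Eos- Tregs as CD4+Foxp3+Ccr6-Cxcr4- cells, and conventional T cells (Tconv) as CD4+Foxp3- cells. The labels give CD4-Cre x Foxp3-GFP as the genotype of all 3 groups, so that the controls carry the Cre and the Foxp3 reporter too, and they give no age. The labels name no stain against B cells in these gates and do not say whether the 4 libraries of a group came from separate animals, so p-values measure the spread between libraries, which may in part be technical.

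B cells carry an antigen receptor built from an immunoglobulin heavy chain and a light chain. Each chain joins a rearranged variable segment to a constant region, so a B cell that makes the receptor transcribes both. The receptor has almost no cytoplasmic tail and signals through the Cd79a and Cd79b pair, whose output is passed on by adaptors such as Blnk and Bank1 and restrained by Cd22. The thymus is known to hold a small population of B cells, which present antigen with MHC class II.

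The heavy chain genes and the kappa gene were counted as constant region genes, and each variable segment had a gene of its own. The start of the constant region shows what was counted, since these transcripts begin at the first constant exon with no variable sequence before it. The first 90 bases of 1 GENCODE M21 transcript each (GRCm38, the mm10 genome) are given 5′ to 3′ in the direction of the transcript. Ighm-202 has 6 exons, and the stretch lies in the first of them at chr12:113422641-113422730 on the minus strand. Ighd-202 has 5 exons, and the stretch lies in the first at chr12:113416235-113416324 on the minus strand. Igkc-201 has 1 exon, and the stretch lies at chr6:70726435-70726524 on the plus strand.
Ighm: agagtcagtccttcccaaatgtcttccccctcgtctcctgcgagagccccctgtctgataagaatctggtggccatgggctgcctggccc
Ighd: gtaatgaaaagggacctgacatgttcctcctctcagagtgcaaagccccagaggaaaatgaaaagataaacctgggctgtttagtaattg
Igkc: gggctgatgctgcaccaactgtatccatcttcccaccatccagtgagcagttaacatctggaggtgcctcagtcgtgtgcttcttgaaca

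Each library held between 23.9 and 37.9 M expected counts. Ccr6 was 227 to 263 CPM in Eos+ Tregs and at most 19.7 CPM elsewhere, while Cxcr4 overlapped between the Treg groups (25.2 to 52.9 and 22.7 to 42.3 CPM). Ikzf4, the gene of Eos, was 292 to 334 CPM in Eos+ Tregs, 155 to 181 CPM in Eos- Tregs and 22.7 to 27.4 CPM in Tconv. The Eos- Tregs thus held less Ikzf4 RNA than Eos+ Tregs but were not without it. Foxp3 was low in the 2 Treg libraries numbered 1: it was 55 and 53.3 CPM there, against 485 to 862 CPM in the other 6 Treg libraries and at most 3.42 CPM in Tconv. Because the libraries numbered 1 stand apart, results are also given without them. Genes of CD4 T cell identity (11 genes, among them Cd4, Cd3e and Trac) summed to 7940 to 8931 CPM in Eos+ Tregs, 9337 to 10379 CPM in Eos- Tregs and 11506 to 12454 CPM in Tconv. Levels are CPM, counts scaled to the TMM-adjusted library total, as mean ± SD (n = 4), and libraries are listed in the order of their replicate numbers 1 to 4.

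Ighm had the highest level of the 9 genes in every library and stood highest in Eos+ Tregs. Ighm (ENSMUSG00000076617.9, chromosome 12, 113418558 to 113422730, minus strand) encodes the constant region of the IgM heavy chain. Its level was 1656, 1548, 1330 and 1560 CPM in the 4 Eos+ Treg libraries. In Eos- Tregs it was 443, 219, 172 and 283 CPM, and in Tconv 343, 219, 194 and 245 CPM. The 4 Eos+ Treg libraries lay close together, at a coefficient of variation of 9.04%, and all above the other 8 libraries, while the ranges of Eos- Tregs and Tconv overlapped. The mean of Eos+ Tregs was 1523 ± 138 CPM, 5.45-fold that of Eos- Tregs (279 ± 118) and 6.09-fold that of Tconv (250 ± 65.2) in the edgeR fit. On the log2 scale these differences were 2.45 ± 0.26 and 2.61 ± 0.26 (± SE), and 2.71 and 2.75 without the libraries numbered 1. Between Eos- Tregs and Tconv the log2 difference was 0.16 ± 0.25, within its error. In bulk RNA, fewer cells of a type and less RNA per cell cannot be told apart, here and for every gene below.

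**Figure D1:**
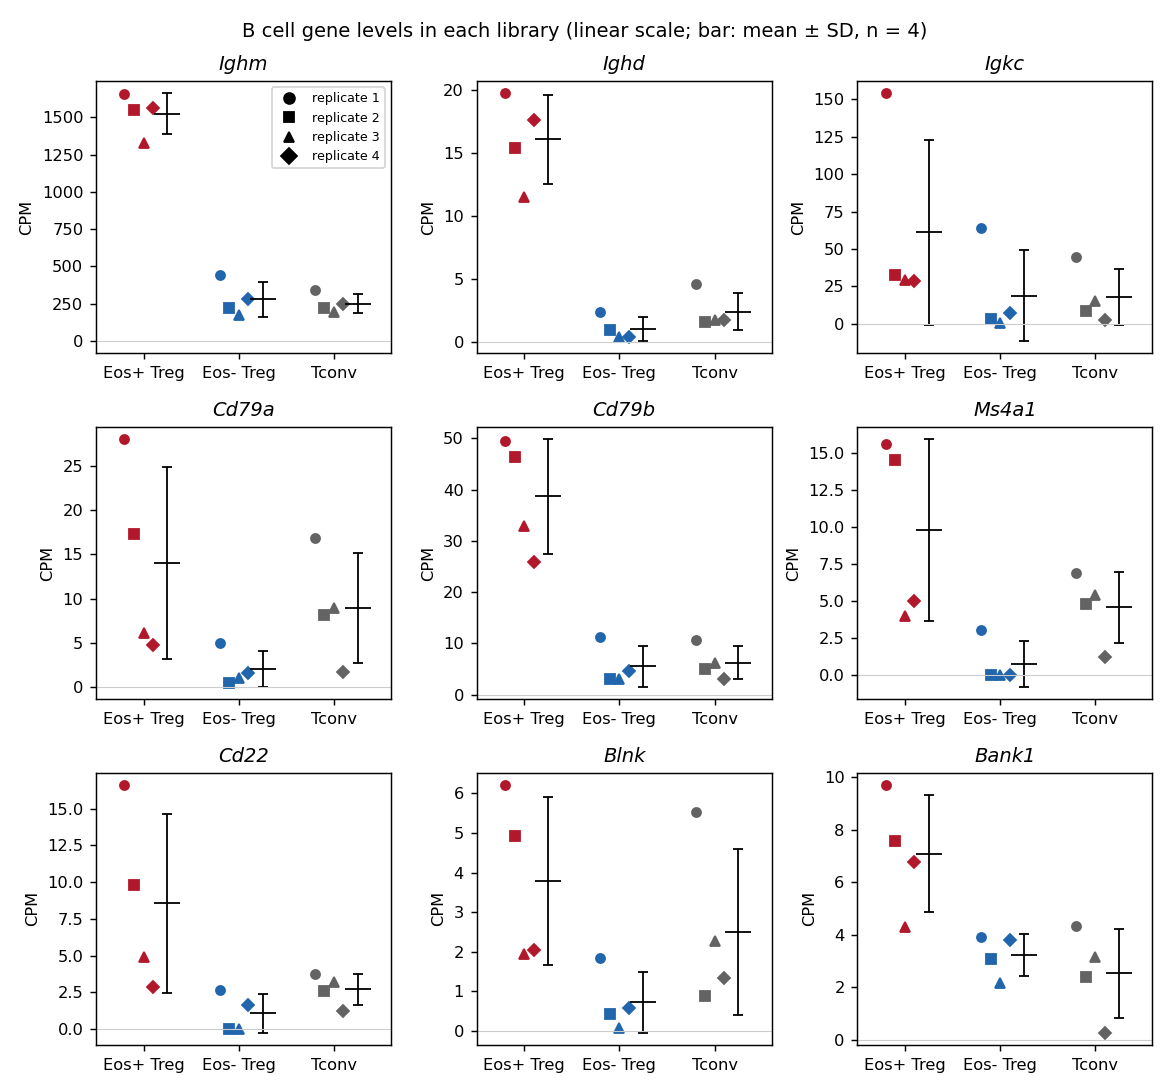
Level of each of the 9 B cell genes in CPM on a linear axis, 1 point per library (its shape gives the replicate number) and 1 panel per gene, for Eos+ Tregs, Eos- Tregs and Tconv, with the group mean ± SD (n = 4) as bars. The 4 Eos+ Treg points lie together for Ighm, from 1330 to 1656 CPM, and are spread from 4.81 to 28 CPM for Cd79a.

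Ighd also stood highest in Eos+ Tregs. Ighd (ENSMUSG00000104213.5, chromosome 12, 113406604 to 113416324, minus strand) encodes the IgD heavy chain constant region, which mature B cells make from the same long transcript as IgM by alternative processing. Its level was 19.7, 15.4, 11.5 and 17.6 CPM in Eos+ Tregs, 2.37, 0.94, 0.346 and 0.373 CPM in Eos- Tregs, and 4.61, 1.53, 1.71 and 1.68 CPM in Tconv. All 4 Eos+ Treg libraries lay above all others, and Eos- Tregs overlapped Tconv only through their library 1, the other 3 lying below all Tconv libraries. The means were 16.1 ± 3.49, 1.01 ± 0.948 and 2.38 ± 1.49 CPM. Eos+ Tregs stood 4.02 ± 0.61 above Eos- Tregs (4.83 without Eos- Treg replicate 1) and 2.75 ± 0.56 above Tconv on the log2 scale. Leaving out 1 library at a time, the difference from Eos- Tregs ran from 3.73 to 4.83, and it was 4.72 without the libraries numbered 1.

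Igkc varied more between libraries of a group than between groups. Igkc (ENSMUSG00000076609.2, chromosome 6, 70726435 to 70726966, plus strand) encodes the constant region of the kappa light chain, the main light chain of mouse antibodies. It was 154, 32.7, 29.4 and 28.6 CPM in Eos+ Tregs, 63.9, 3.42, 0.484 and 7.09 CPM in Eos- Tregs, and 44.7, 8.41, 15.4 and 2.52 CPM in Tconv. Library 1 was the highest of each group, and the groups overlapped through it: without the libraries numbered 1, the lowest Eos+ Treg library (28.6 CPM) lay above the highest of the others (15.4 CPM). The coefficient of variation was 101% in Eos+ Tregs and 162% in Eos- Tregs. Eos+ Tregs stood 1.72 ± 1.16 above Eos- Tregs on the log2 scale, 0.70 without Eos+ Treg replicate 1 and 4.03 without Eos- Treg replicate 1. Against Tconv the difference was 1.79 ± 1.16, and 0.77 without Eos+ Treg replicate 1 and 2.81 without Tconv replicate 1. With the libraries numbered 1 left out of all groups, the differences were 3.03 from Eos- Tregs and 1.79 from Tconv.

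Cd79a, one of the receptor's 2 signalling chains, showed a different order of groups from Ighm. Cd79a (ENSMUSG00000003379.7, chromosome 7, 24897381 to 24902197, plus strand) is held to be among the most B cell-restricted of these genes. It was 28, 17.3, 6.15 and 4.81 CPM in Eos+ Tregs, 4.98, 0.513, 1.11 and 1.67 CPM in Eos- Tregs, and 16.9, 8.13, 8.92 and 1.74 CPM in Tconv. Eos+ Tregs and Tconv overlapped along most of their range, and the Eos- Treg libraries were low except for library 1. The means were 14 ± 10.8, 2.07 ± 2 and 8.92 ± 6.22 CPM, so Tconv stood between the Treg groups. The log2 difference of Eos+ Tregs from Eos- Tregs was 2.78 ± 0.81 (3.66 without Eos- Treg replicate 1), that of Eos+ Tregs from Tconv 0.66 ± 0.75, and that of Eos- Tregs from Tconv -2.12 ± 0.79. The first of these ran from 2.2 to 3.66 without 1 library at a time, and was 3.09 without the libraries numbered 1.

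Its partner Cd79b was closer to Ighm in its pattern. Cd79b (ENSMUSG00000040592.11, chromosome 11, 106311341 to 106314762, minus strand) was 49.5, 46.4, 33 and 25.8 CPM in Eos+ Tregs, 11.3, 3.02, 2.94 and 4.65 CPM in Eos- Tregs, and 10.6, 4.93, 6.09 and 3.05 CPM in Tconv. All 4 Eos+ Treg libraries lay above all others, and the ranges of Eos- Tregs and Tconv overlapped. The means were 38.7 ± 11.2, 5.48 ± 3.96 and 6.17 ± 3.21 CPM, and Eos+ Tregs stood 2.83 ± 0.48 above Eos- Tregs (3.44 without Eos- Treg replicate 1) and 2.65 ± 0.47 above Tconv on the log2 scale. Without 1 library at a time the difference from Eos- Tregs was 2.62 to 3.44, and without the libraries numbered 1 it was 3.3. The 2 chains of the pair therefore differed: counts of Cd79b per count of Cd79a were 1.77, 2.69, 5.37 and 5.37 in the Eos+ Treg libraries and 2.27, 5.89, 2.66 and 2.79 in the Eos- Treg libraries. In Tconv they were 0.627, 0.607, 0.683 and 1.76, below every Treg library, though Tconv replicate 4 lay only just under Eos+ Treg replicate 1.

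Of the surface proteins, Ms4a1 held no count in 3 of the 4 Eos- Treg libraries and Cd22 none in 2. Ms4a1 (ENSMUSG00000024673.9, chromosome 19, 11249675 to 11266241, minus strand) encodes CD20, a membrane protein of B cells. It was 15.6, 14.5, 4.02 and 4.99 CPM in Eos+ Tregs, 3.07, 0, 0 and 0 CPM in Eos- Tregs, and 6.87, 4.79, 5.44 and 1.21 CPM in Tconv. A count of 0 allows up to 0.0855, 0.104 and 0.0862 CPM (3 counts) in Eos- Treg replicates 2, 3 and 4. Over those 3 libraries Eos+ Tregs, all 4 pooled, were at least 319-fold higher and Tconv at least 145-fold higher, where 3 counts over the 3 libraries set the floor. These bounds cover counting error only and leave out Eos- Treg replicate 1, with which the log2 difference of Eos+ from Eos- Tregs was 3.73 ± 1.34.

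Cd22 (ENSMUSG00000030577.14, chromosome 7, 30865402 to 30880342, minus strand) encodes an inhibitory receptor that binds sialic acid. It was 16.6, 9.79, 4.93 and 2.85 CPM in Eos+ Tregs, 2.66, 0, 0 and 1.64 CPM in Eos- Tregs, and 3.76, 2.59, 3.2 and 1.24 CPM in Tconv. The lowest Eos+ Treg library, replicate 4, lay just above the highest Eos- Treg library and within the range of Tconv. The log2 difference of Eos+ from Eos- Tregs was 3.01, and 3.39 without the libraries numbered 1. Cd22 shares 479 exon bases with Gm29439 on the opposite strand, which held 0 CPM in all libraries.

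Blnk and Bank1, the adaptors, stood at a few CPM. Blnk (ENSMUSG00000061132.13, chromosome 19, 40928927 to 40994535, minus strand) links the receptor's kinases to phospholipase C. It ran from 1.95 to 6.21 CPM in Eos+ Tregs, 0.0691 to 1.83 CPM in Eos- Tregs and 0.887 to 5.52 CPM in Tconv. Bank1 (ENSMUSG00000037922.13, chromosome 3, 136053363 to 136326066, minus strand), a scaffold protein of B cells, ran from 4.29 to 9.69 CPM, 2.18 to 3.9 CPM and 0.289 to 4.32 CPM in the same order. Both were higher in all 4 Eos+ Treg than in all 4 Eos- Treg libraries, and both overlapped between Eos+ Tregs and Tconv. Bank1 had the smallest difference of the 9 genes between the Treg groups, at 1.13 ± 0.56 on the log2 scale, and the steadiest Eos- Treg level, with a coefficient of variation of 24.7%. Without the libraries numbered 1 this difference was 1.03 for Bank1 and 3.02 for Blnk (2.4 with them).

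Levels of different genes are set side by side only per length. Per kilobase of exon, the mean level in Eos+ Tregs was 808 CPM for Ighm and 115 CPM for Igkc, then 27 CPM for Cd79b, 9.64 CPM for Cd79a and 8.45 CPM for Ighd. Ms4a1 stood at 1.58 CPM per kilobase. In Tconv the same measure was 133 CPM for Ighm, 33.3 CPM for Igkc, 6.12 CPM for Cd79a, 4.31 CPM for Cd79b and 1.25 CPM for Ighd. The order of Cd79a and Cd79b was thus reversed between the means of these groups, within the large spread of Cd79a.

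Comparing the groups over the 9 genes, Eos+ Tregs were higher than Eos- Tregs in all 9 and above Tconv in all 9 by fitted fold change. Against Eos- Tregs, 4 of 9 passed an adjusted p of 0.05 in the edgeR quasi-likelihood test (Ighm, Ighd, Cd79a and Cd79b, all higher). Of all 15361 genes tested 16.3% passed, 9.82% higher and 6.45% lower. The block on the replicate number, which the library names share across groups, raised this count to 7, as did leaving out the 3 libraries numbered 1. The 4 Eos+ Treg libraries lay above all 4 Eos- Treg libraries in 7 of 9 genes. Over all genes this share was 12.1%, and 7.86% for libraries all below. The exceptions were Igkc and Cd79a. The median log2 difference of the 9 genes was 2.78, beside 0.003 over all genes. These genes were chosen for such differences, so the counts describe them and test nothing.

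Against Tconv, Eos+ Tregs passed in 3 of 9 genes (Ighm, Ighd and Cd79b, all higher), beside 30.3% of all genes (17.3% higher and 13.0% lower). The same 3 genes were those whose Eos+ Treg libraries all lay above Tconv, beside 18.5% of all genes, and 14.6% for libraries all below. The median log2 difference was 1.67, beside -0.008 over all genes, and the range ran from 0.59 ± 0.76 for Blnk to 2.75 ± 0.56 for Ighd. Ighm (2.61) and Cd79b (2.65) thus had values near that of Ighd, while Cd79a (0.66) (± 0.75) was within its error. This comparison shares its Eos+ Treg libraries with the one before.

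Between Eos- Tregs and Tconv, 0 of 9 genes passed, beside 14.6% of all genes (8.76% higher and 5.89% lower), and 3 did at an unadjusted p of 0.05. DESeq2 and limma-voom also passed 0. With the replicate block 4 passed, all lower in Eos- Tregs. Without Eos- Treg replicate 1 there were also 4, and without the 3 libraries numbered 1 there were 3. No gene had groups free of overlap, beside 10.5% of all genes for higher and 9.64% for lower. Log2 differences were 0.36 ± 0.55 for Bank1, 0.16 ± 0.25 for Ighm, 0.07 ± 1.14 for Igkc and -0.18 ± 0.45 for Cd79b. They were -1.26 ± 0.56 for Ighd, -1.34 ± 1.07 for Cd22, -1.80 ± 0.80 for Blnk, -2.12 ± 0.79 for Cd79a and -2.63 ± 1.29 for Ms4a1. The value for Igkc rests on the libraries numbered 1, and was -1.24 without them.

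**Figure D2:**
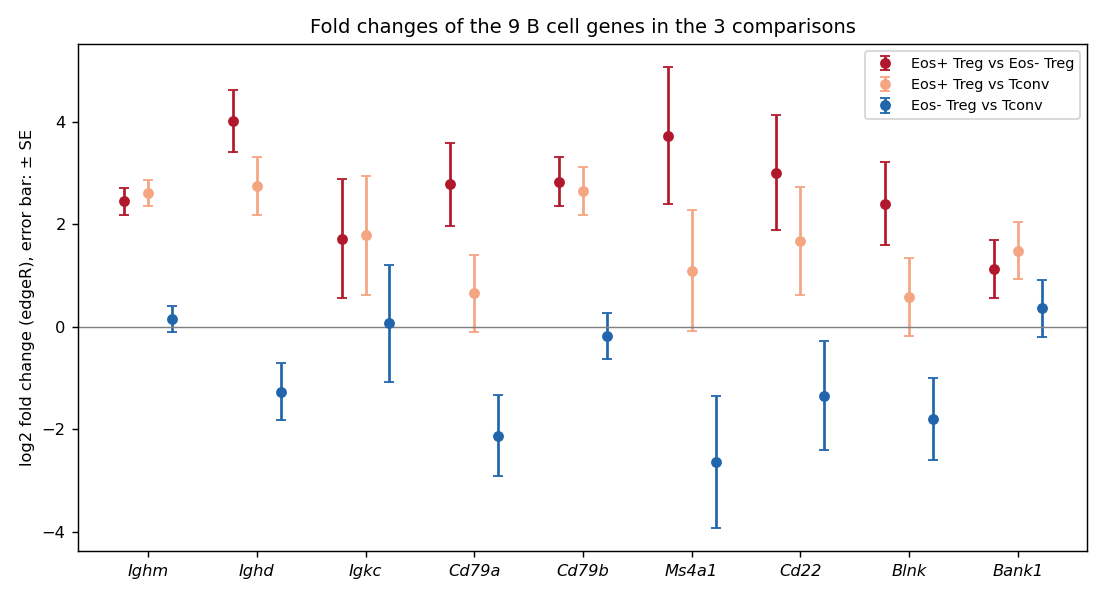
Log2 fold change of each of the 9 genes from the edgeR fit (points) with its standard error (bars), in the 3 comparisons. Ighm stands at 2.45 and 2.61 for Eos+ Tregs against Eos- Tregs and Tconv and at 0.16 for Eos- Tregs against Tconv, where Cd79a is at -2.12 and Ms4a1 at -2.63.

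Across replicate numbers the genes shared the top place and not the rest of the order. The library numbered 1 was the highest of its group in 27 of 27 combinations of gene and group. The lowest library differed between genes, being replicate 3 for 5 and replicate 4 for 4 of the 9 genes in Eos+ Tregs. Within a number, Eos+ Tregs exceeded Eos- Tregs for all 9 genes in 4 of 4 numbers. For Ighm the ratio within numbers 1 to 4 was 3.74, 7.05, 7.72 and 5.52 against Eos- Tregs and 4.83, 7.08, 6.84 and 6.36 against Tconv. Ighm in Eos- Tregs over Tconv was 1.29, 1, 0.886 and 1.15, near equal in each number. For Cd79a the Eos+ Treg ratio to Eos- Tregs was 5.61, 33.6, 5.56 and 2.89, and its ratio to Tconv was 1.65, 2.12, 0.69 and 2.77. Eos- Tregs over Tconv gave 0.295, 0.0631, 0.124 and 0.96 for Cd79a, below 1 in every number.

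The ratio of Ighm to the other B cell genes was not fixed from library to library. Counts of Ighm per count of Cd79a were 59.2, 89.7, 216 and 324 in Eos+ Tregs, 88.9, 428, 156 and 170 in Eos- Tregs, and 20.3, 26.9, 21.8 and 141 in Tconv. Tconv replicates 1 to 3 lay below every Treg library, and the Treg groups overlapped. Per count of Cd79b, Ighm gave 33.5, 33.3, 40.3 and 60.4 in Eos+ Tregs, 39.2, 72.7, 58.6 and 60.8 in Eos- Tregs, and 32.4, 44.3, 31.9 and 80.4 in Tconv. This ratio spanned from 31.9 to 80.4 over all 12 libraries, with the 3 groups overlapping. Counts of Ighm per count of Ighd were 84, 101, 115 and 88.6 in Eos+ Tregs and 74.4, 143, 114 and 146 in Tconv, and 187, 233, 498 and 757 in Eos- Tregs, which lay above all others. Per count of Igkc, Ighm ran from 10.7 to 54.5 in Eos+ Tregs, 6.93 to 356 in Eos- Tregs and 7.68 to 97.1 in Tconv, lowest in library 1 of each group.

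**Figure D3:**
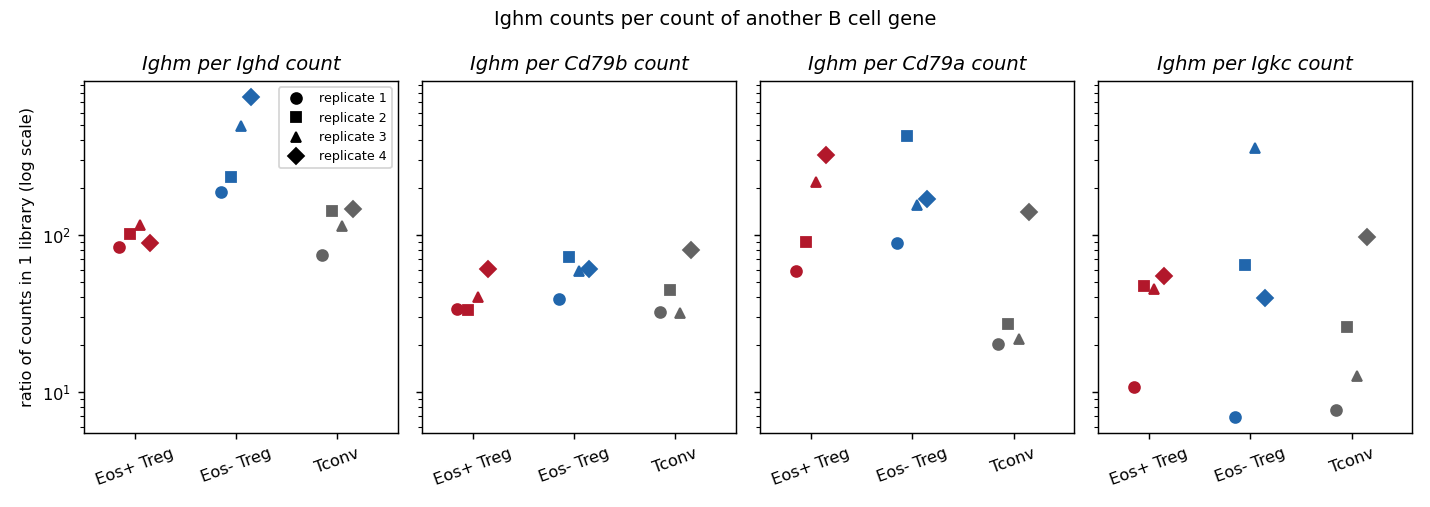
Counts of Ighm per count of Ighd, Cd79b, Cd79a or Igkc in the same library, on a log axis, 1 point per library for the 3 groups. Ighm per Cd79b spans 31.9 to 80.4 over the 12 libraries, while Ighm per Ighd is 187 to 757 in Eos- Tregs and at most 146 elsewhere.

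Variable segment transcripts, which are not among the 9 genes, gave a further measure of rearranged immunoglobulin. The 348 annotated Ighv, Igkv and Iglv segments summed to 84.4, 21.2, 14.6 and 12 CPM in Eos+ Tregs, 62.7, 2.45, 0.173 and 4.91 CPM in Eos- Tregs, and 27.3, 5.54, 10.4 and 2.29 CPM in Tconv. Library 1 was the highest of every group, and Eos+ Tregs overlapped the other groups only through the libraries numbered 1. Without those, the lowest Eos+ Treg library (12 CPM) lay above the highest of the others (10.4 CPM). Segments with at least 1 count numbered 127, 95, 62 and 50 in Eos+ Tregs, 63, 6, 4 and 22 in Eos- Tregs, and 108, 61, 67 and 36 in Tconv. On log2(CPM + 1) the mean of Eos+ Tregs was 1.99 above that of Eos- Tregs (exact two-sided permutation p = 0.229, adjusted over the 3 comparisons 0.343), higher in 4 of 4 numbers. The difference from Tconv was 1.45 (exact permutation p = 0.171, adjusted 0.343), also higher in 4 of 4 numbers. For Eos- Tregs against Tconv it was -0.55 (exact permutation p = 0.743, adjusted 0.743), higher in 2 of 4 numbers. Without Eos- Treg replicate 1 the first difference was 3.11, and without Tconv replicate 1 the second was 1.99. Thus no difference in the segments passed the test over all libraries, whose smallest possible p over 70 arrangements is 0.0286. The segments are similar in sequence, so the sharing of reads among them is uncertain and only their sum was tested.

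Ighm and the segments moved apart most in Eos- Treg replicate 3. That library held 4982 counts of Ighm (172 CPM) with 5 counts over all variable segments, 14 of Igkc, 10 of Ighd, 32 of Cd79a, 85 of Cd79b, 63 of Bank1, 2 of Blnk and 0 of Ms4a1 and Cd22. Other B-lineage genes were present in it, among them Fcrl1 at 4.6 CPM and Cxcr5 at 8.26 CPM. Counts of Ighm per segment count were 996 there, and 7.06, 89.6 and 57.6 in the other Eos- Treg libraries. In Eos+ Tregs this ratio was 19.6, 73, 91.2 and 130, and in Tconv 12.6, 39.5, 18.7 and 107. That library was singled out after its values were seen, and the deposited counts do not tell which part of the Ighm gene the reads covered.

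**Figure D4:**
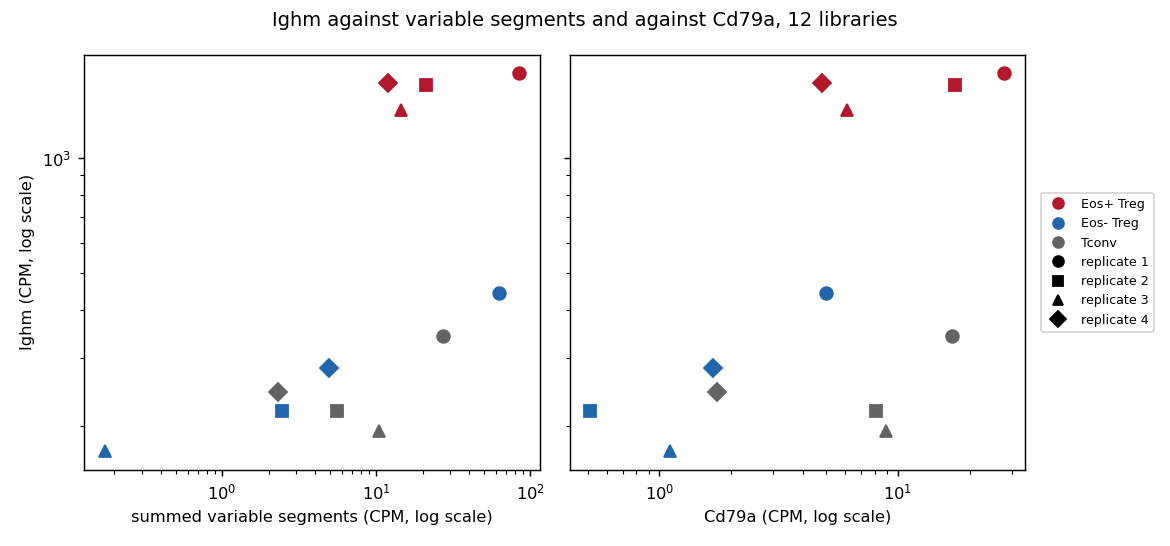
Ighm (vertical axis, CPM, log scale) against the summed variable segments (left) and Cd79a (right; horizontal axes, CPM, log scale), 1 point per library coloured by group. The 4 Eos+ Treg libraries lie between 1330 and 1656 CPM of Ighm over a range of 4.81 to 28 CPM of Cd79a.

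Likeness to Ighm is a description over the 12 libraries, and across all of them it is carried largely by the difference between groups. Pearson's r of log2 CPM with Ighm was 0.958 for Cd79b and 0.915 for Ighd, and 0.572 to 0.71 for the other 6 genes, Cd79a having the lowest. After each group's mean was subtracted the order changed, with 0.852 for Blnk, 0.83 for Igkc, 0.814 for Ighd, 0.781 for Cd79b, 0.742 for Cd22, 0.715 for Ms4a1, 0.573 for Cd79a and 0.287 for Bank1. Library 1 was the highest of its group for all 9 genes, so values after this subtraction, here and for Cd79a below, may rest largely on the libraries numbered 1. The 5 tested genes outside the 9 with the highest r to Ighm before this subtraction were Cyp2u1 (0.989), Cldnd1 (0.986), Axl (0.984), Nucb2 (0.982) and Vars (0.98). Axl, a receptor tyrosine kinase, had means of 215, 10.9 and 10.3 CPM in Eos+ Tregs, Eos- Tregs and Tconv. Cldnd1 had means of 212, 53.4 and 43.8 CPM. For Cd79a the group means were subtracted in the same way. Its r over the 12 libraries was 0.921 with Cd79b, 0.814 with Ms4a1, 0.782 with Igkc and 0.573 with Ighm. Yars (0.944), Ly86 (0.931), Fcmr (0.913), Gprin3 (0.91) and Bcar3 (0.907) were the most like Cd79a, and of these Ly86 and Fcmr are known from B cells.

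Of 48 further B-lineage genes, 44 could be tested. Against Eos- Tregs, 13 of 44 were higher in Eos+ Tregs and 31 did not pass (edgeR quasi-likelihood test, Benjamini-Hochberg adjusted over all 15361 genes), where 9.82% of all genes were higher and 6.45% lower. The median log2 difference was 1.41, beside 0.003 over all genes. Against Tconv, 9 were higher and 1 lower, with a median of 0.97 beside -0.008 over all genes. Since 17.3% of all genes were higher and 13.0% lower there, the share of 9 in 44 is near the background. Eos- Tregs against Tconv gave 6 higher and 4 lower, with a median of -0.79 beside -0.012, where 8.76% of all genes were higher and 5.89% lower. The counts of single lists below are read against these shares. Leaving out the 3 libraries numbered 1 gave 16, 11 and 15 genes passing in these comparisons. The 16 were all higher, the 11 were 10 higher and 1 lower, and the 15 were 5 higher and 10 lower. The count of 13 for Eos+ against Eos- Tregs depended on single libraries. It was 7 without Eos+ Treg replicate 1, 7 without Eos- Treg replicate 2, 8 without Eos- Treg replicate 4 and 24 without Eos- Treg replicate 1.

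Among co-receptors and signalling genes of the B cell receptor, 5 of 14 were higher in Eos+ than in Eos- Tregs. Cd81, a tetraspanin that T cells also make, rose 2.47-fold (368 ± 47.4 against 149 ± 12.5 CPM, adjusted p = 1.45e-05). Cd72, a surface receptor of B cells, rose 1.87-fold (112 ± 23.9 against 60.1 ± 7.23 CPM, adjusted p = 0.00214). The kinase Lyn rose 12.4-fold (adjusted p = 0.0215) and the inhibitory Fc receptor Fcgr2b 7.6-fold (adjusted p = 0.0447). Fcgr2b missed the threshold in 9 of 15 other settings, at adjusted p from 0.0502 to 0.126, and Lyn in 2, at 0.0502 to 0.0626. Without Eos- Treg replicate 1 the log2 difference of Lyn was 4.69 in place of 3.63. Cd72 shares 1423 exon bases with Tesk1 on the opposite strand, which reached 76 CPM, so its counts are uncertain in libraries that do not mark strand.

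Among transcription factors of B cells, Irf8 was the 1 of 6 tested that was higher in Eos+ Tregs than in either other group. Irf8, which dendritic cells also use, was 95.3, 69.7 and 25.5 CPM on average in Eos+ Tregs, Eos- Tregs and Tconv. It rose 1.37-fold in Eos+ over Eos- Tregs (adjusted p = 0.0367, lost in 7 of 15 settings at 0.0665 to 0.113). Against Tconv it rose 3.74-fold in Eos+ Tregs (adjusted p = 7.32e-07) and 2.73-fold in Eos- Tregs (adjusted p = 2e-05). Pax5, the factor that maintains B cell identity, was at most 0.639 CPM in every library and too low to test. Ebf1 was 3.04, 1.69, 1.92 and 0.733 CPM in Eos+ Tregs and at most 1.14 CPM in every other library, and did not pass (adjusted p = 0.109 against Eos- Tregs and 0.353 against Tconv). Pou2af1, a co-activator of octamer promoters, fell by 1.68 on the log2 scale in Eos- Tregs against Tconv (adjusted p = 0.0271), a call lost in 5 of 15 settings.

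Of the mature B cell surface genes, 5 of 12 were higher in Eos+ than in Eos- Tregs. Cd40, the receptor for T cell help, rose 25.7-fold (9.08 ± 2.67 against 0.358 ± 0.274 CPM, adjusted p = 0.000213). Cxcr5, the follicle-homing receptor that some T cells also carry, rose 9.33-fold (adjusted p = 0.000499), and its counts are uncertain, since it shares 110 exon bases with Bcl9l on the opposite strand (up to 17.9 CPM). Fcmr, a receptor for IgM, rose 7.61-fold (adjusted p = 0.0031). Fcrl1 rose 6.95-fold (34.1 ± 9.25 against 4.93 ± 2.68 CPM, adjusted p = 0.00026). These 4 calls held in all 15 other settings, and without Eos- Treg replicate 1 the log2 differences were 5.27 for Cd40 (4.68 with it) and 3.55 for Fcmr (2.93 with it).

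Against Tconv the surface list had 4 of 12 members higher in Eos+ Tregs. Cxcr5 rose 25.4-fold (adjusted p = 1.49e-05), Fcrl1 17.9-fold (adjusted p = 5.05e-06), Cd40 6.93-fold (adjusted p = 0.00137) and Tnfrsf13b 1.87-fold (adjusted p = 2.05e-05). Fcrl1, a receptor-like protein of B cells, was 32.1, 43.2, 39.1 and 22 CPM in Eos+ Tregs, 8.81, 3.39, 4.6 and 2.93 CPM in Eos- Tregs, and 2.06, 1.42, 1.43 and 2.68 CPM in Tconv. All of its Eos+ Treg libraries lay above the others, and the Eos- Treg libraries lay above Tconv. In Eos- Tregs against Tconv, Cxcr5 and Fcrl1 rose (log2 1.44 and 1.36, adjusted p = 0.0472 and 0.0218) while Cd40 and Fcmr fell by 1.89 and 2.03 (adjusted p = 0.0349 and 0.0239). These 4 calls were lost in 8, 4, 8 and 5 of 15 settings, and without Eos- Treg replicate 1 the last 2 values were -2.48 and -2.65.

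Signalling genes against Tconv were mixed in direction. In Eos+ Tregs Cd72 rose 5.4-fold (adjusted p = 4.61e-07), Cd81 2.61-fold (adjusted p = 1.77e-06) and the adaptor Dapp1 1.67-fold (adjusted p = 3.95e-05). The phosphatase Ptpn6, which T cells also use, fell by 0.78 on the log2 scale (adjusted p = 0.000114). Eos- Tregs showed the same directions for Cd72 (log2 1.53, adjusted p = 5.46e-05), Dapp1 (0.46, adjusted p = 0.00359) and Ptpn6 (-0.47, adjusted p = 0.00945), with Tconv shared between these comparisons.

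Genes of class-switched immunoglobulin and plasma cells gave 2 of 11 higher in Eos+ than in Eos- Tregs, both lost in 6 of 15 settings. Ighg2c had a log2 difference of 5.15 (adjusted p = 0.0264), whose size depends on Eos- Treg replicate 1, since the other 3 Eos- Treg libraries held no count of it. Without that library the difference was 9.32 and still passed. Eos+ Treg replicate 3, at 0.0875 CPM, lay below Eos- Treg replicate 1, at 0.291 CPM. Derl3, a protein of endoplasmic reticulum degradation that plasma cells make much of, rose 8.48-fold (adjusted p = 0.0293) over Eos- Tregs and 13.2-fold over Tconv (adjusted p = 0.00692, log2 5.90 without Tconv replicate 4 and 3.72 with it). The call against Tconv was lost in 1 of 15 settings, DESeq2. Derl3 was 0.0654, 0.177, 0.0311 and 1.37 CPM in Tconv. The IgG heavy chain genes together were 74.1, 11.2, 4.46 and 6.72 CPM in Eos+ Tregs, 28.9, 0, 0 and 0 CPM in Eos- Tregs, and 14.5, 7.49, 8.64 and 0.473 CPM in Tconv. Jchain, which joins IgM and IgA multimers, was 27.5, 0.23, 5.28 and 5.4 CPM in Eos+ Tregs and did not pass (adjusted p = 0.861 against Eos- Tregs, 0.289 against Tconv). Vpreb1, the pre-B cell gene that could be tested, was at most 1.87 CPM and did not pass in any comparison.

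Genes of MHC class II, with which B cells also present antigen, and genes of dendritic cells and macrophages were present in the same libraries. The 9 MHC class II genes summed to 1422, 919, 709 and 649 CPM in Eos+ Tregs, 775, 263, 237 and 268 CPM in Eos- Tregs, and 808, 330, 606 and 270 CPM in Tconv. Of these, 3 of 9 were higher in Eos+ than in Eos- Tregs, namely Cd74 (log2 1.65, adjusted p = 0.046), H2-Oa (0.81, adjusted p = 0.0105) and H2-Ob (0.70, adjusted p = 0.00948). The 11 dendritic cell and macrophage genes summed to 112 to 221 CPM in Eos+ Tregs, 64.1 to 175 CPM in Eos- Tregs and 80.2 to 119 CPM in Tconv. Of the 10 tested, 1 was higher in Eos+ than in Eos- Tregs, Xcr1 (log2 2.76, adjusted p = 0.00784). The part of dendritic cells and macrophages in the B cell gene levels was not tested.

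The summed red blood cell and granulocyte genes were highest in the libraries numbered 1, through the haemoglobin genes. The 9 genes summed to 537, 0.172, 1.52 and 46.7 CPM in Eos+ Tregs, 478, 0.0855, 0.0691 and 19.1 CPM in Eos- Tregs, and 393, 0.177, 1.74 and 7.73 CPM in Tconv. The granulocyte gene S100a8 was 0 CPM in Eos+ Treg replicate 1 and 2.55 CPM in replicate 4, so these genes did not all follow the sum. Of the list, 0 of 7 tested passed in any comparison, also at an unadjusted p of 0.05. Ighm was 1656, 1548, 1330 and 1560 CPM in the Eos+ Treg libraries in the same order, and a relation between it and this sum was not tested.

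**Figure D5:**
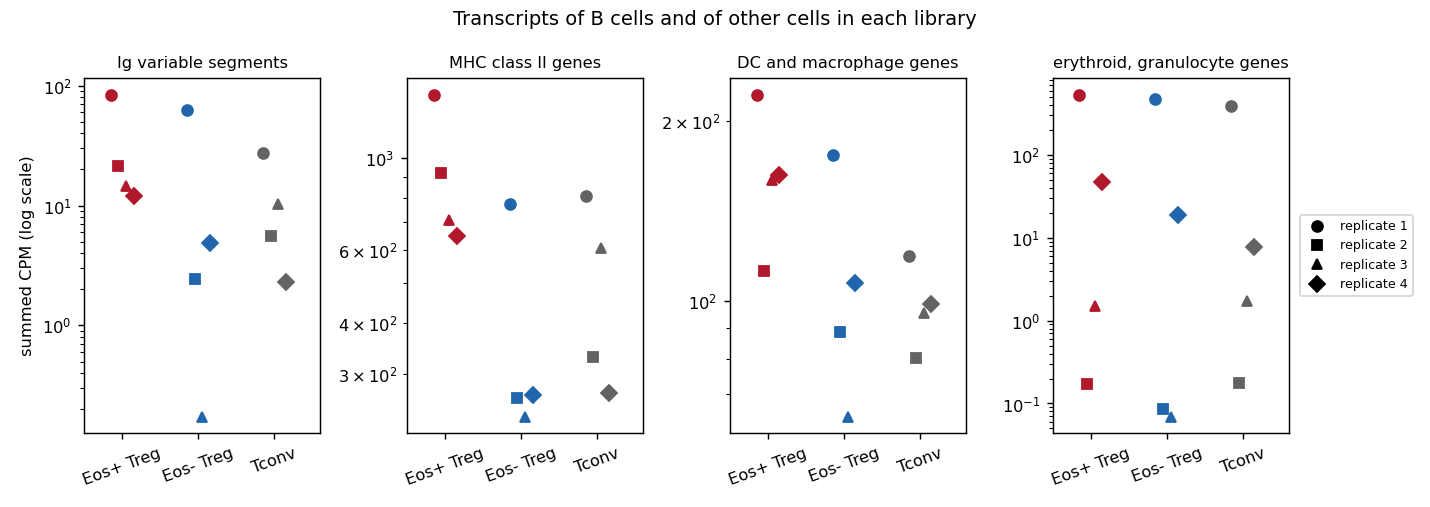
Summed level in CPM on log axes of the variable segments and of the MHC class II, dendritic cell and macrophage, and erythroid and granulocyte genes, 1 point per library for the 3 groups. The erythroid and granulocyte sum reaches 537, 478 and 393 CPM in the libraries numbered 1, and the MHC class II sum runs from 237 to 1422 CPM.

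Promoter sequence was looked at because many immunoglobulin and B cell promoters carry the octamer, the site of the Oct factors that work with Pou2af1. The letters searched were ATGCAAAT and, for the other strand, ATTTGCAT, in the 300 bases around each start (RefSeq, GRCm38.p6). They occurred in 570 of 32851 promoters, 1.74%. Of the 9 genes 4 had an entry, and 1 of these, Blnk, held a match, starting 130 bases before the RefSeq transcript start. The GENCODE M21 gene of Blnk reaches 40994535, so this RefSeq start and the stretch before it lie within that gene. The 250 bases before the RefSeq start of Blnk, at chr19:40994222-40994471 on the minus strand, are given 5′ to 3′ with the octamer in capitals.
Blnk: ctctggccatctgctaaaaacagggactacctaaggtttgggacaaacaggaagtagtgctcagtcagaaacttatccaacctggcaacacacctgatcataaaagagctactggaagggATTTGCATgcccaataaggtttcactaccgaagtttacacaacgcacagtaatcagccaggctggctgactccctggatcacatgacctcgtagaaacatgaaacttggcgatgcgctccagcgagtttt
The other 3, Cd79a, Cd22 and Bank1, held no match to these letters in the window. The stretch before the RefSeq start also lay within the GENCODE gene for Cd22, and in part for Cd79a. Blnk, the gene with the match, was at 3.78 ± 2.12, 0.725 ± 0.765 and 2.51 ± 2.09 CPM in Eos+ Tregs, Eos- Tregs and Tconv.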

How the data were processed

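The authors deposited a table of expected counts, made with cutadapt 1.18, STAR 2.7.0f and RSEM 1.3.1 on mm10, per the submitters' processing notes. Their parameters are not given in the sources used here. Libraries came from low-input template-switching cDNA, per the labels' protocols, a kind of kit that marks no strand. Between 9.54% and 10.7% of values per library were fractional, because RSEM splits multi-mapping reads between genes. All 55450 IDs matched GENCODE M21, the source of positions.

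Counts were rounded and tested with edgeR 4.0.16 in R 4.3.3: TMM, filterByExpr, 1 mean per group over 12 libraries, quasi-likelihood F test, two-sided, Benjamini-Hochberg per comparison, threshold 0.05. The script was checked on simulated data. Standard errors are the log2 fold change divided by the square root of F. The 9 genes, the lists and the naming rule (per list and comparison up to 4 passing genes with the largest change, plus Pax5, Ebf1, Jchain and a gene that is not reported here) were chosen with earlier results of these data known.

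Library names share an identifier across groups for each replicate number. Deviations from group means correlated at 0.138 to 0.318 in all 12 same-number pairs and at -0.226 to 0.07 in 36 others. The main model and the main segment test left this pairing out, and it entered the tests only as an alternative. Alternatives were DESeq2 1.42.0, limma-voom (limma 3.58.1), DESeq2-type scaling, no filter, the replicate block, only the compared groups, each library left out and the libraries numbered 1 left out. Without molecular identifiers, floors cover counting error only.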

Additional observations from a re-analysis of the deposited data

Results flagged for a closer look

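In 6 of 30 sets of 4 libraries, 1 library lay far from the other 3 by Dixon's test of the gap to the nearest library over the whole range. Chance alone marks about 1 in 20 such sets where values are normally distributed, which was not checked for these CPM on the linear scale. These sets are also not independent, since they share libraries. In all 6 the library apart was replicate 1 and the highest. Igkc was 154 CPM in Eos+ Treg replicate 1, with the next at 32.7 CPM, and 63.9 CPM in Eos- Treg replicate 1, with the next at 7.09 CPM. The summed variable segments were 84.4 CPM in Eos+ Treg replicate 1, with the next at 21.2 CPM, and 62.7 CPM in Eos- Treg replicate 1, with the next at 4.91 CPM. Ms4a1 was 3.07 CPM in Eos- Treg replicate 1 and 0 in the other 3. Ighd was 4.61 CPM in Tconv replicate 1, with the next at 1.71 CPM. Ighm was in none of the 6.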

How the results depend on the processing

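The count of B cell genes passing for Eos+ against Eos- Tregs (4) was 7 in the model with the replicate block, 7 with number 1 left out of every group, and 3 to 8 without 1 library at a time (8 without Eos- Treg replicate 1). For Eos+ Tregs against Tconv (3) it was 3 to 4, and for Eos- Tregs against Tconv (0) it was 4 with the block, 3 without the libraries numbered 1 and 0 to 4 without 1 library. The count of other B-lineage genes ran from 7 to 24 for Eos+ against Eos- Tregs (13). For Eos+ Tregs against Tconv (10) it was 10 without any 1 library, and 16 with limma-voom and 16 with only these groups in the model. For Eos- Tregs against Tconv (10) it ran from 6 (without Eos- Treg replicate 3, Eos- Treg replicate 4 or Tconv replicate 3) to 21 (5 higher and 16 lower, without Eos- Treg replicate 1). The block moved no other of these totals by over 1.5 times. For Eos- Tregs against Tconv it passed 6 other B-lineage genes higher and 8 lower, against 6 and 4 without it. The segment difference was 1.19 to 3.11, 0.86 to 1.99 and -1.66 to 0.26 in the same order without 1 library, the 0.26 being without Eos- Treg replicate 3. Paired by number, the exact permutation p of the segments was 0.188, 0.188 and 0.75 after adjustment, where 0.125 is the smallest raw p possible. The cause of these changes was not tested.

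Ighm kept its direction in all settings run, at 2.27 to 2.75 over Eos- Tregs and 2.50 to 2.79 over Tconv without 1 library (log2). Genes under a few CPM, such as Blnk and Ms4a1, rest on few counts in Eos- Tregs, and their fold changes have standard errors near 1 or above. Strand, isoform and read position are not in the deposited counts, so membrane, secreted and unrearranged Ighm transcripts were not told apart.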

Other observations

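Of the 9 genes listed for thymic epithelium and stroma, 4 could be tested, and 2 were higher and 1 lower in Eos+ than in Eos- Tregs. Epcam, an adhesion protein of epithelium, was 30.4 ± 6.75, 12.7 ± 2.35 and 6.93 ± 0.658 CPM in Eos+ Tregs, Eos- Tregs and Tconv, and rose 2.39-fold in Eos+ over Eos- Tregs and 4.39-fold over Tconv (edgeR quasi-likelihood adjusted p = 0.000652 and 3.79e-06). Aire, the regulator of tissue antigen expression in medullary epithelium and in some thymic antigen-presenting cells, was 1.13, 2.47, 2.04 and 0.675 CPM in Eos+ Tregs and at most 0.883 CPM in every other library (adjusted p = 0.0299 against Eos- Tregs and 0.137 against Tconv). Krt8, a keratin, did not pass (adjusted p = 0.769 and 0.615), and Foxn1, Krt5 and Psmb11, which define thymic epithelium, were at most 0.878 CPM in every library. Pecam1, an endothelial and leukocyte adhesion protein, fell by 0.98 on the log2 scale in Eos+ against Eos- Tregs (adjusted p = 0.000828) and by 0.59 against Tconv (adjusted p = 0.00949).

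Siglech, a marker of plasmacytoid dendritic cells, was low in Eos+ Tregs and did not pass in any comparison (adjusted p = 0.133 for Eos+ against Eos- Tregs, 0.0511 for Eos+ Tregs against Tconv and 0.797 for Eos- Tregs against Tconv). It was 1.07, 0, 0.117 and 0.205 CPM in Eos+ Tregs, 13.6, 1.37, 0 and 0.23 CPM in Eos- Tregs, and 6.96, 7.59, 5.69 and 3.92 CPM in Tconv, and was picked out after its values were seen.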
